A study of Mus musculus with 14 samples.

Results

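The 10 genes followed here mark resident macrophages of the bone marrow and were measured in marrow plugs of the distal tibia: Cd163, Hmox1, Slc40a1, Spic, Vcam1, C1qa, C1qb, C1qc, Mrc1 and Adgre1. They were taken by symbol from the count matrix, which lists 23441 genes, and all 10 were among the 17494 genes with enough counts to be tested. Each was counted in every library, with between 449 and 20813 counts per gene and library.

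The study asked how marrow responds to a shortage of calories when its adipocytes cannot carry out normal lipolysis. In BMAd-Pnpla2-/- mice the floxed gene for adipose triglyceride lipase, Pnpla2, is deleted in bone marrow adipocytes (BMAds), and BMAd-Pnpla2+/+ mice served as controls. Deletion is driven by BMAd-Cre, in which a FLP recombinase under the Osterix promoter switches on a Cre placed in the Adipoq gene. The paper states that mice of both genotypes carried both of these insertions. Whether the Pnpla2 alleles were floxed set BMAd-Pnpla2-/- mice apart from controls. The study gives low Cre expression and lowered adiponectin as limits of this model, which both genotypes share. Male C57BL6/SJL mice were 24 weeks old and were either fed ad libitum (AL) or kept on 30% caloric restriction (CR) for 6 weeks, with food given daily in the evening. Each sample pooled the plugs of 2 mice, and there were 4 BMAd-Pnpla2+/+ AL, 4 BMAd-Pnpla2+/+ CR, 3 BMAd-Pnpla2-/- AL and 3 BMAd-Pnpla2-/- CR samples, 14 in all. P-values below measure the spread between these pooled samples.

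Resident marrow macrophages sit at the centre of erythroblastic islands, where they hold developing red cells, engulf the nuclei these cells expel and clear aged red cells. Haemoglobin taken up through CD163 or by engulfment is broken down by haem oxygenase, and the iron leaves the cell through ferroportin. The same cells make C1q, which starts the classical complement pathway and tags dying cells for removal. None of the 10 genes is expressed in macrophages alone: VCAM1 is also made by reticular stromal and endothelial cells, the mannose receptor by sinusoidal endothelium, and haem oxygenase and ferroportin by many cell types. In marrow plugs, more cells of a type and more RNA per cell cannot be told apart.

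The libraries held 18898324 to 21665553 gene counts. In 11 of them 4.30% to 4.62% of strand-assigned counts lay on the first strand, and in the 3 BMAd-Pnpla2-/- CR libraries 50.1% to 50.5% did, so these 3 were not strand specific. Counts without regard to strand were therefore used throughout, and library type cannot be told apart from the BMAd-Pnpla2-/- CR group. Values are CPM, the counts of a gene scaled to a common library size of 1e6 counts, after scaling by trimmed mean of M-values (TMM). The targeted gene Pnpla2 ranged from 176 to 305 CPM in BMAd-Pnpla2+/+ AL, 509 to 1029 in BMAd-Pnpla2+/+ CR, 133 to 172 CPM in BMAd-Pnpla2-/- AL and 180 to 271 CPM in BMAd-Pnpla2-/- CR libraries. Adipocyte markers were present in each group, with Plin1 at 26.5 to 71.0 CPM in the lowest group, BMAd-Pnpla2-/- AL, and 190 to 642 CPM in the highest, BMAd-Pnpla2+/+ CR. Some libraries stood apart in the macrophage genes themselves. Replicate 2 of BMAd-Pnpla2-/- AL was the highest and replicate 1 the lowest of its group for all 10 genes, and replicate 1 of BMAd-Pnpla2-/- CR was the lowest of its group for all 10.

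Per kilobase of exon, the order of the genes was similar in the 4 groups. Levels are given as RPKM, that is CPM per kilobase of exon, using merged exons of GENCODE M21, so that genes of different length can be set side by side. In BMAd-Pnpla2+/+ AL marrow Hmox1 was highest at 326 ± 43.2 RPKM (SD, n = 4), followed by C1qb at 214 ± 39.0, C1qa at 184 ± 25.1 and C1qc at 115 ± 18.5. Vcam1 followed at 50.9 ± 4.40 RPKM and Slc40a1 at 36.7 ± 5.91. Mrc1 stood at 27.1 ± 3.17 and Adgre1 at 23.3 ± 5.68 RPKM. Spic, at 9.61 ± 0.0654, and Cd163, at 7.31 ± 2.84, were the lowest. Neighbours whose ranges overlapped in that group were C1qb with C1qa, Slc40a1 with Mrc1, Mrc1 with Adgre1, and Spic with Cd163. Cd163 was last of the 10 in both AL groups, ninth in BMAd-Pnpla2+/+ CR at 19.0 ± 4.74 RPKM and eighth in BMAd-Pnpla2-/- CR at 25.3 ± 10.3 RPKM (n = 3). Neighbours also changed places, Slc40a1 and Mrc1 in BMAd-Pnpla2+/+ CR and C1qa and C1qb in BMAd-Pnpla2-/- CR marrow.

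**Figure D1:**
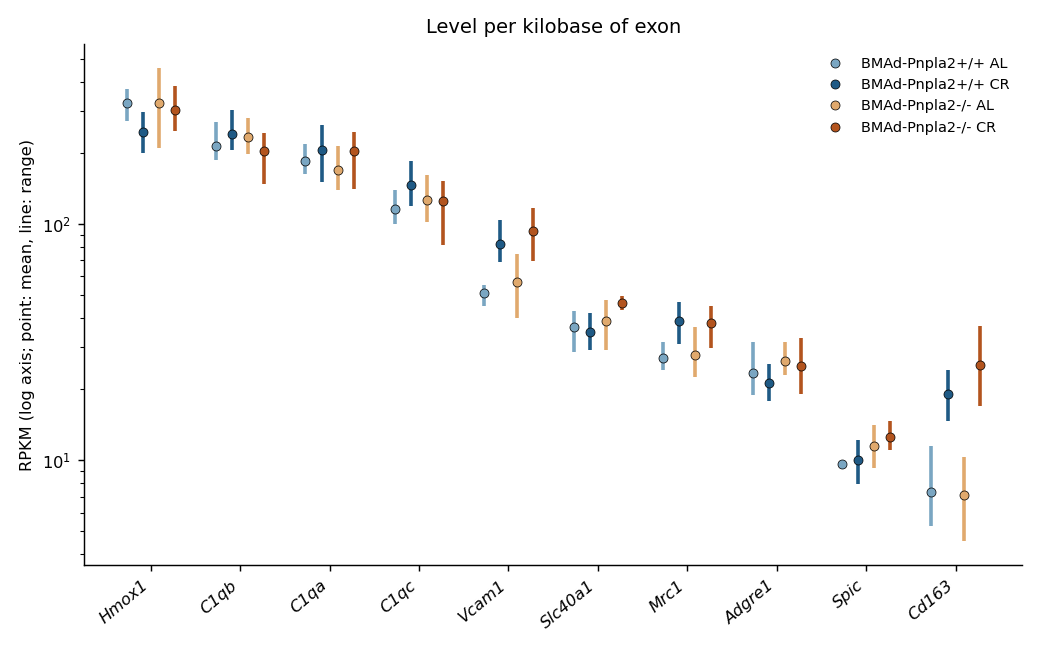
RPKM on a log axis for each gene, ordered by level in BMAd-Pnpla2+/+ AL samples; points are group means and lines run from the lowest to the highest sample (n = 4, 4, 3 and 3). Hmox1 and the C1q genes are above 80 RPKM in all groups, and Cd163 moves from about 7 RPKM in both AL groups to 19.0 and 25.3 RPKM under CR.

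Caloric restriction raised 3 of the 10 genes in BMAd-Pnpla2+/+ marrow, Cd163, Vcam1 and Mrc1, and lowered none. By edgeR's quasi-likelihood test with Benjamini-Hochberg adjustment over all 17494 genes, 15% of genes were higher and 10.9% lower at an adjusted p under 0.05, so 3 of 10 upward and 0 of 10 downward is read against those shares. The median log2 fold change of the 10 was 0.16, and that of all tested genes was 0.00. Without Pnpla2 in BMAds 1 of the 10, Cd163, rose and none fell, where 6.01% of all genes were higher and 5.57% lower. There the median of the 10 was 0.19 and of all tested genes 0.05. Diet cannot be told apart from library type in that genotype. When a log2 fold change beyond 1 in either direction was required as well, as the study did, 1 of the 10 passed in BMAd-Pnpla2+/+ marrow, again Cd163, where 9.19% of all genes did.

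**Figure D2:**
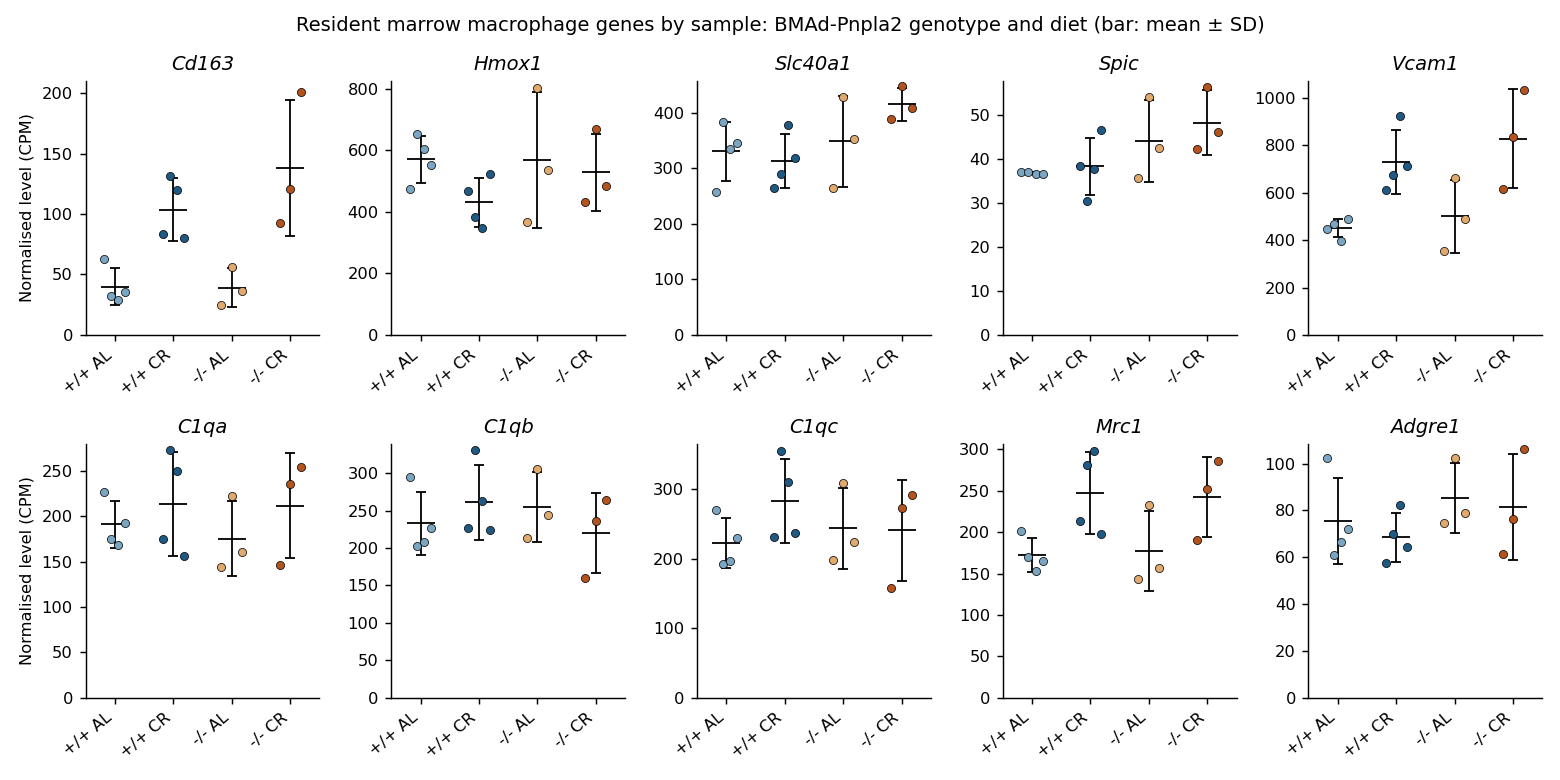
CPM of each gene in all 14 samples by genotype and diet; each point is a pooled sample and the bars show mean ± SD (n = 4, 4, 3 and 3). The CR samples of Cd163 and, in BMAd-Pnpla2+/+ mice, of Vcam1 lie above their AL samples, while the AL and CR samples of the C1q genes, Adgre1 and Spic overlap.

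Cd163 encodes the scavenger receptor for haemoglobin bound to haptoglobin, and it lies on chromosome 6 from 124304656 to 124330527 (GRCm38, plus strand). In BMAd-Pnpla2+/+ AL samples its level was 62.8, 32.3, 28.8 and 35.9 CPM. In BMAd-Pnpla2+/+ CR samples it was 83.5, 132, 120 and 80.0 CPM. Every restricted sample was above every AL sample, with replicate 1 of AL the nearest. The rise was 2.60-fold (log2 1.38 ± 0.32 SE, adjusted p = 0.0107 by edgeR), with a 95% interval of 1.61 to 4.20-fold. In BMAd-Pnpla2-/- mice Cd163 was at 24.7, 56.4 and 36.1 CPM under AL and at 92.6, 121 and 201 CPM under CR. Again the diets did not overlap, and the rise was 3.54-fold (log2 1.82 ± 0.37 SE, adjusted p = 0.0133 by edgeR, interval 2.02 to 6.19-fold). In this genotype the libraries also differ in type between the diets. Diet and library type cannot be told apart here, nor in the difference between genotypes that follows. The difference between the responses of the genotypes was 1.36-fold with an interval of 0.662 to 2.80 (interaction adjusted p = 0.743 by edgeR), so a larger rise in BMAd-Pnpla2-/- marrow was not detectable with these samples. In BMAd-Pnpla2+/+ mice the call held in 14 of 14 fits that each left out 1 sample and in 10 of 10 other fits. In BMAd-Pnpla2-/- mice it was lost without AL replicate 1 (adjusted p = 0.0551), AL replicate 3 (0.0511) or CR replicate 3 (0.0567). Cd163 stayed at log2 1.53, 1.73 and 1.45 in these fits. Of all genes 443 of 18024, 510 of 18017 and 248 of 17951 passed there, beside 2025 of 17494 with all samples.

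Markers of other marrow cells moved under CR, so Cd163 was also set against other macrophage genes of the same library, as a description with no test. Per 100 Adgre1 counts there were 51.8 ± 7.56 Cd163 counts in control mice under AL and 151 ± 26.8 under CR (SD, n = 4). Without Pnpla2 in BMAds the values were 44.7 ± 11 under AL and 166 ± 20.7 under CR (n = 3). Per 100 C1q counts, taken as the geometric mean of C1qa, C1qb and C1qc, Cd163 stood at 18.2 ± 3.94 and 41.2 ± 1.94 in the BMAd-Pnpla2+/+ groups and at 17.2 ± 3.45 and 61.1 ± 13 in the BMAd-Pnpla2-/- groups, AL before CR. The 4 BMAd-Pnpla2+/+ CR libraries lay within 39.5 to 43.8 on this scale, although their Cd163 levels spanned 80.0 to 132 CPM. No CR library overlapped an AL library of either genotype, nor did the C1q-based values of the CR groups overlap each other, although library type differs between those groups. Against Mrc1, which rose itself, Cd163 went from 22.7 ± 5.88 to 41.6 ± 3.48 counts per 100 in BMAd-Pnpla2+/+ and from 21.6 ± 3.73 to 55.6 ± 12.8 in BMAd-Pnpla2-/- samples.

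**Figure D3:**
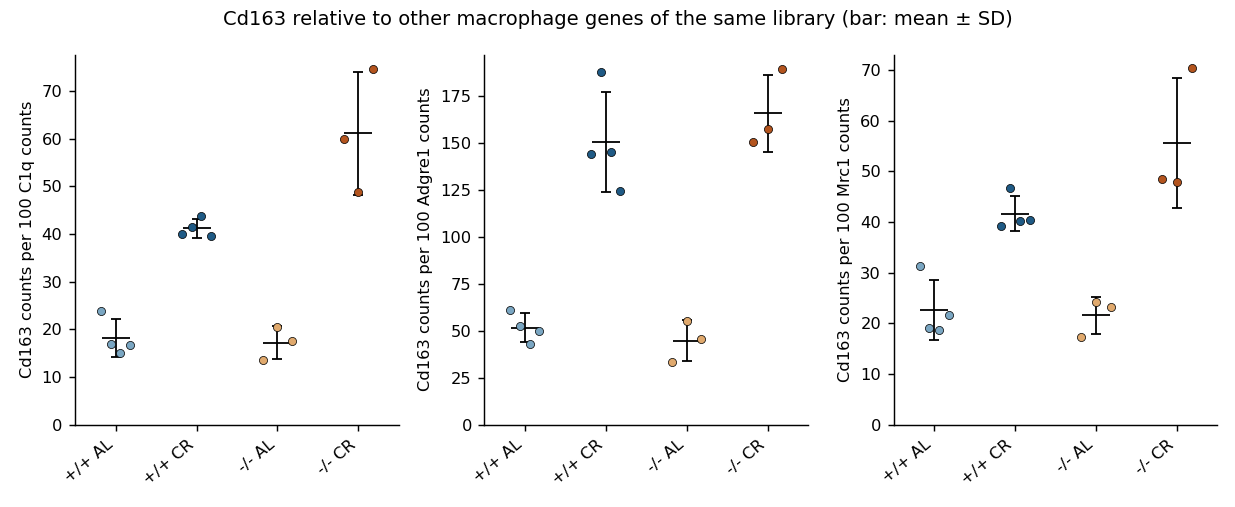
Cd163 counts per 100 counts of the C1q genes (geometric mean of C1qa, C1qb and C1qc), Adgre1 or Mrc1 in each library; points are samples and bars mean ± SD (n = 4, 4, 3 and 3). In each panel the CR libraries of both genotypes lie above the AL libraries, for example 124 to 188 against 43.1 to 61.3 per 100 Adgre1 counts in BMAd-Pnpla2+/+ samples.

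Hmox1, the inducible haem oxygenase that opens the haem ring (chromosome 8, 75093621 to 75100589), did not follow Cd163. It was at 475, 652, 603 and 553 CPM in BMAd-Pnpla2+/+ AL samples. In BMAd-Pnpla2+/+ CR samples it was at 468, 383, 348 and 523 CPM. The groups overlapped, and the fold was 0.755 with an interval of 0.545 to 1.05 (adjusted p = 0.180 by edgeR). In BMAd-Pnpla2-/- samples Hmox1 ranged from 365 to 802 CPM under AL and from 433 to 670 under CR, a fold of 0.931 with an interval of 0.639 to 1.36 (adjusted p = 0.829 by edgeR).

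Slc40a1 encodes ferroportin, the iron exporter (chromosome 1, 45908068 to 45926523). In BMAd-Pnpla2+/+ mice it averaged 330 ± 53.2 CPM under AL and 313 ± 49.1 under CR, a fold of 0.947 (interval 0.749 to 1.20, adjusted p = 0.732 by edgeR). Spic, the transcription factor Spi-C that red pulp and marrow macrophages need to develop (chromosome 10, 88674772 to 88685015), stood at 36.9 ± 0.251 and 38.3 ± 6.58 CPM under these diets, a fold of 1.04 (interval 0.839 to 1.29, adjusted p = 0.797 by edgeR). The 4 AL samples of Spic lay within 36.7 to 37.1 CPM, from 694 to 763 counts. In BMAd-Pnpla2-/- marrow the CR over AL fold was 1.19 for Slc40a1 (interval 0.909 to 1.56) and 1.10 for Spic (interval 0.856 to 1.40), and neither passed the test (adjusted p = 0.387 and 0.645 by edgeR). Thus Cd163, the uptake receptor, was higher under CR in both genotypes, and Hmox1, Slc40a1 and Spic did not pass the test in either. Library type differed between the diets as well in BMAd-Pnpla2-/- mice.

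Vcam1 encodes the adhesion molecule that binds integrin alpha 4 beta 1 on erythroblasts and other blood cells (chromosome 3, 116109949 to 116129688, minus strand). In BMAd-Pnpla2+/+ AL samples it was at 449, 468, 398 and 490 CPM. In BMAd-Pnpla2+/+ CR samples it was at 611, 676, 924 and 712 CPM. The diets did not overlap, and the rise was 1.62-fold (log2 0.70 ± 0.20 SE, interval 1.21 to 2.17-fold, adjusted p = 0.0219 by edgeR). The call was lost without AL replicate 3 (adjusted p = 0.0721) or CR replicate 3 (adjusted p = 0.0731). In those fits 2866 of 17444 and 2200 of 17362 of all genes passed, beside 4543 of 17494 with all samples. In BMAd-Pnpla2-/- samples Vcam1 was at 355, 661 and 489 CPM under AL and at 617, 834 and 1035 CPM under CR. AL replicate 2 lay above CR replicate 1, and the 1.65-fold difference (interval 1.18 to 2.31) missed the threshold with an adjusted p of 0.0525 by edgeR. Without AL replicate 2, the library highest in all 10 genes, it passed (adjusted p = 0.0240), as it did without CR replicate 1 (0.0340) or BMAd-Pnpla2+/+ CR replicate 3 (0.0402). The interaction was 1.02-fold with an interval of 0.655 to 1.59 (adjusted p = 0.982 by edgeR). An antisense gene, Gm43109, shares 61 exon bases with Vcam1, and reads there cannot be assigned without strand.

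C1qa, C1qb and C1qc encode the A, B and C chains of C1q and lie within 18675 bases of chromosome 4, from 136880129 to 136898803 on the minus strand, in the order C1qb, C1qc, C1qa. None passed the test in any comparison. In BMAd-Pnpla2+/+ marrow the CR over AL fold was 1.12 for C1qa (interval 0.812 to 1.54), 1.12 for C1qb (0.856 to 1.47) and 1.28 for C1qc (0.931 to 1.75). The BMAd-Pnpla2-/- values were 1.21 (0.835 to 1.75), 0.865 (0.633 to 1.18) and 0.987 (0.687 to 1.42). Within a group the chains kept close to each other: replicates 2 and 3 of BMAd-Pnpla2+/+ CR had C1qc at 356 and 310 CPM, and replicates 1 and 4 at 231 and 237 CPM, and C1qa and C1qb were likewise highest in replicate 2 and then in replicate 3. C1qc stood at 95.7 ± 4.32 counts per 100 C1qb counts in BMAd-Pnpla2+/+ AL samples and at 108 ± 6.73 under CR, where the highest AL and the lowest CR sample were both at 102. In BMAd-Pnpla2-/- samples it stood at 95.2 ± 5.16 under AL and 108 ± 8.66 under CR, with overlap. C1qa stood at 82.5 ± 4.28 and 81.1 ± 10.7 per 100 C1qb counts in BMAd-Pnpla2+/+ AL and CR samples. In BMAd-Pnpla2-/- mice it stood at 68.6 ± 3.57 under AL and 95.6 ± 4.32 under CR, the group whose libraries were not strand specific. The part of library type in that ratio was not tested.

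Mrc1 encodes the mannose receptor CD206, an endocytic receptor for glycoproteins (chromosome 2, 14229392 to 14332057). It was at 201, 170, 153 and 166 CPM in BMAd-Pnpla2+/+ AL samples. In BMAd-Pnpla2+/+ CR samples it was at 213, 281, 298 and 198 CPM. CR replicate 4 lay just below AL replicate 1, and the rise was 1.44-fold (log2 0.52 ± 0.18 SE, interval 1.10 to 1.88-fold, adjusted p = 0.0473 by edgeR). This call was close to the threshold: it held in 5 of 14 fits that left out 1 sample, where the adjusted p ran from 0.0217 to 0.142, and in 6 of 10 other fits. It was lost without replicate 2, 3 or 4 of BMAd-Pnpla2+/+ AL, replicate 1, 2 or 3 of BMAd-Pnpla2+/+ CR, replicate 1 or 3 of BMAd-Pnpla2-/- AL or replicate 2 of BMAd-Pnpla2-/- CR, with adjusted p of 0.0523 or above. In BMAd-Pnpla2-/- samples the fold was 1.37 (interval 1.01 to 1.87, adjusted p = 0.165 by edgeR), and it passed without AL replicate 2 (adjusted p = 0.0474).

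Adgre1 encodes F4/80, the surface protein by which mouse macrophages are commonly sorted (chromosome 17, 57358691 to 57483527). In BMAd-Pnpla2+/+ mice it averaged 75.5 ± 18.4 CPM under AL and 68.6 ± 10.4 under CR (SD, n = 4). In the other genotype they were 85.2 ± 14.9 under AL and 81.4 ± 22.7 under CR (n = 3). The CR over AL fold was 0.908 (interval 0.682 to 1.21) in BMAd-Pnpla2+/+ and 0.954 (interval 0.686 to 1.33) in BMAd-Pnpla2-/- marrow, and neither passed the test (adjusted p = 0.610 and 0.875 by edgeR).

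**Figure D4:**
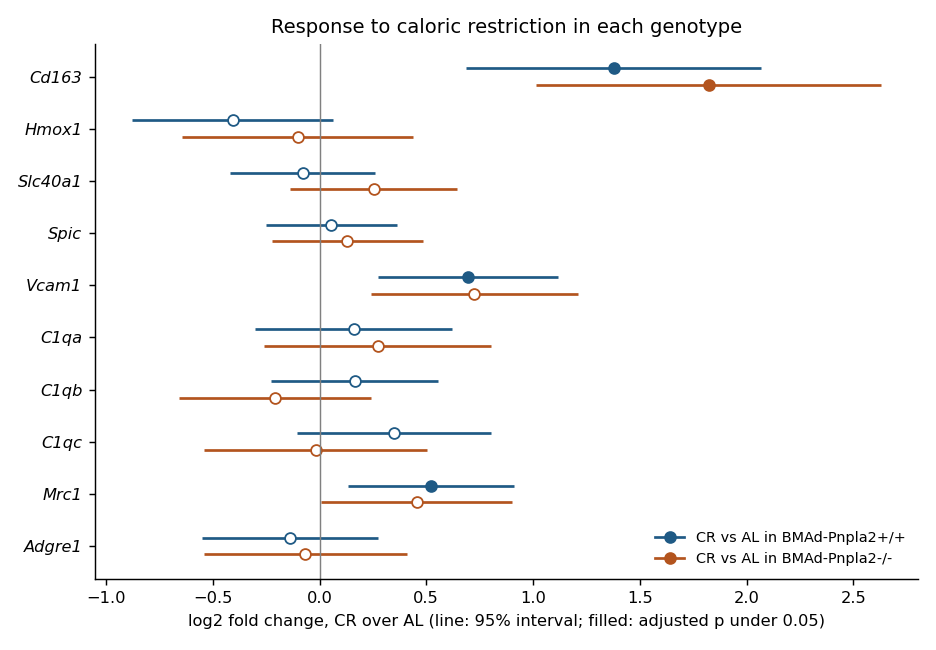
Log2 fold change of CR over AL for each gene in BMAd-Pnpla2+/+ (blue) and BMAd-Pnpla2-/- (orange) marrow from the edgeR fit; lines are 95% intervals and filled points have an adjusted p under 0.05. Cd163, at 1.38 and 1.82, is filled in both genotypes, Vcam1 and Mrc1 in BMAd-Pnpla2+/+ only, and the intervals of both genotypes overlap for each gene.

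Loss of Pnpla2 from BMAds moved none of the 10 genes past the threshold. The targeted gene Pnpla2 itself did not pass under AL (log2 -0.57 ± 0.25 SE by edgeR). It passed under CR (log2 -1.905 ± 0.26 SE, adjusted p = 0.0387 by edgeR) and not in the interaction (log2 -1.34 ± 0.35 SE, adjusted p = 0.337). Under AL the log2 differences, BMAd-Pnpla2-/- over +/+, ran from -0.12 to 0.26, and 0 of 10 passed, as did 0.0% of all genes, by edgeR, with 694 of 17494 genes and none of the 10 at an unadjusted p under 0.05. The values were -0.03 for Cd163, -0.01 for Hmox1, 0.08 for Slc40a1, 0.26 for Spic, 0.15 for Vcam1, -0.12 for C1qa, 0.13 for C1qb and for C1qc, 0.04 for Mrc1 and 0.17 for Adgre1. When each sample was left out in turn, 2 of the 10, Spic and Adgre1, kept their direction in all 14 fits, so no order of the genotypes is read from these values. Under CR they ran from -0.25 to 0.41, and 0 of 10 passed against 0.0171% of all genes. That share depended on single samples: 3 of all genes passed, 2092 without replicate 4 and 256 without replicate 3 of BMAd-Pnpla2+/+ CR, 240 without replicate 2 of BMAd-Pnpla2+/+ AL, 0 without any one BMAd-Pnpla2-/- CR sample, and 2451 with the deposited matrix, with 0 of the 10 in each. At an unadjusted p under 0.05 were 2 of the 10 and 4052 of all genes. These were Slc40a1 and Spic. Slc40a1 was at 264, 290, 378 and 319 CPM in BMAd-Pnpla2+/+ CR and at 389, 448 and 409 CPM in BMAd-Pnpla2-/- CR samples, a difference of 1.33-fold without overlap (interval 1.03 to 1.71, adjusted p = 0.175 by edgeR). Spic differed by 1.26-fold (interval 1.003 to 1.59, adjusted p = 0.210 by edgeR). The log2 differences of the others were 0.41 for Cd163, 0.30 for Hmox1, 0.18 for Vcam1, -0.01 for C1qa, -0.25 for C1qb, -0.24 for C1qc, -0.03 for Mrc1 and 0.25 for Adgre1, with adjusted p of 0.469 or above by edgeR. Library type differs between these groups and cannot be told apart from genotype. It also cannot be told apart from the difference in CR response given next. The genotypes' responses to CR were also compared directly, and the interaction passed for 0 of 10 genes and 0.0% of all genes by edgeR, with none of the 10 and 1824 of all genes at an unadjusted p under 0.05. On the log2 scale it was 0.44 for Cd163, 0.30 for Hmox1, 0.33 for Slc40a1, 0.08 for Spic, 0.03 for Vcam1, 0.11 for C1qa, -0.37 for C1qb and for C1qc, -0.07 for Mrc1 and 0.07 for Adgre1. By DESeq2 the interaction passed for 60 of all genes, and the genotype difference for 19 under AL and 1598 under CR, with 0 of the 10 genes in each.

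Beyond group means, the 10 genes fell into sets by how they varied between samples. After subtracting each group's mean log2 CPM, pairs among Cd163, C1qa, C1qb, C1qc, Mrc1 and Adgre1 had Pearson correlations of 0.80 to 0.97 over the 14 samples (15 pairs, median 0.91). Pairs among Hmox1, Slc40a1 and Spic had 0.54 to 0.84 (3 pairs). Between these sets the 18 correlations ran from -0.04 to 0.39. Vcam1 stood between them, at 0.63 to 0.81 with the former and 0.43 to 0.72 with the latter. These are descriptions over samples that share library, scaling and cell makeup, and the sets were drawn after the values were seen. Without subtracting the group means, Cd163 kept 0.92 with Mrc1 and 0.91 with Vcam1, and had 0.34 with C1qb and 0.25 with Adgre1.

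**Figure D5:**
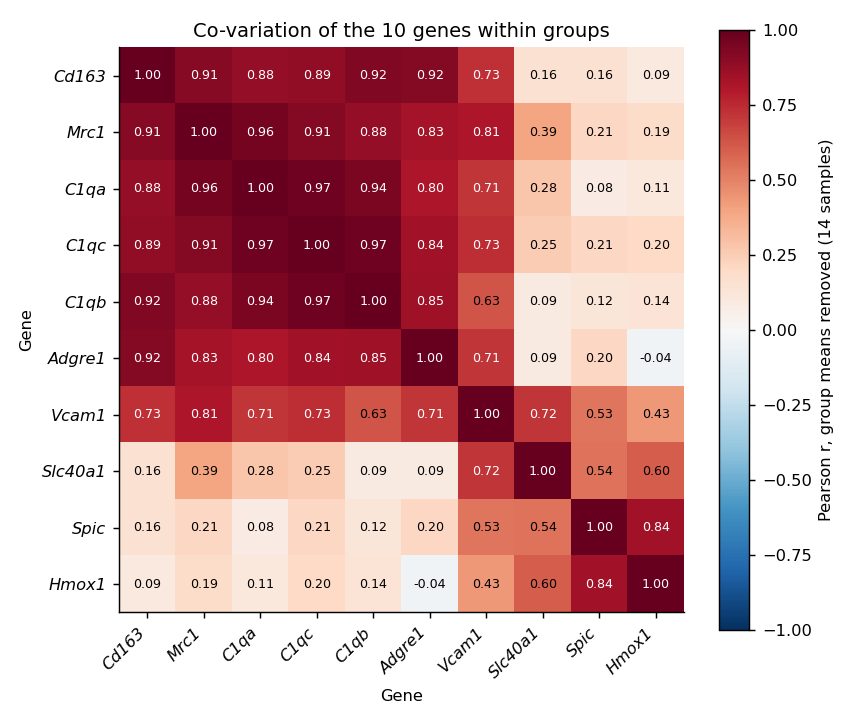
Pearson correlation of log2 CPM between each pair of genes over 14 samples after the group means were removed. Cd163, Mrc1, the C1q genes and Adgre1 form a block at 0.80 or above, and Slc40a1, Spic and Hmox1 correlate with it at 0.39 or below.

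For each gene the 3 other tested genes most like it over the 14 samples, by Pearson correlation of log2 CPM, were also drawn up. Those of Cd163 were Rapgef5, Abca8a and Arhgap5 (r = 0.97, 0.97 and 0.96). Those of Mrc1 were Zfp275, Lepr and Pdgfra (0.98 each), the last 2 being receptors that mark reticular stromal cells. Vcam1 was most like Tlr7 (0.98), Tmem106b (0.97) and Wwp1 (0.96). C1qb was most like Sdc3 (0.97), Pld3 (0.93) and Siglec1 (0.92), and Siglec1, the sialoadhesin of resident macrophages, also led the list of C1qc (0.95). Adgre1 was most like Pla2g15 (0.89), Tmem26 (0.89) and Cd86 (0.86), and C1qa like Cnn3 (0.93), Serpina3h (0.92) and Sox7 (0.91). Correlations were lower for Hmox1 (0.83 with Sult6b1), Spic (0.87 with Ccr3) and Slc40a1 (0.88 with Gm37780).

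Promoter sequence from RefSeq (GRCm38.p6) was matched for 5 of the 10 genes, Cd163, Spic, C1qb, C1qc and Mrc1, and no entry was found for Hmox1, Slc40a1, Vcam1, C1qa and Adgre1. Those of Cd163 and Mrc1 are shown because both genes rose, and those of C1qb and C1qc because these neighbours varied together (r = 0.97 within groups) and did not pass the test. Each runs 5′ to 3′ along its gene from 250 bases before the start to 30 bases after it. Capitals mark matches, on either strand, to GAGGAA, the core bound by PU.1 and Spi-C, to TGACNNNGC, the core of the antioxidant response element, and to AGAACA, a hexamer bound by the glucocorticoid receptor.
Cd163, chr6:124304401-124304680, plus strand: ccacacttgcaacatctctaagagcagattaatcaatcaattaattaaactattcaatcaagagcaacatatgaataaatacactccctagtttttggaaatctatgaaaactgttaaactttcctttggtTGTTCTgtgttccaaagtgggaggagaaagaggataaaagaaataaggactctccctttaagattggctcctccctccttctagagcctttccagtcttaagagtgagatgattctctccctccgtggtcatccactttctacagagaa
Mrc1, chr2:14229164-14229443, plus strand: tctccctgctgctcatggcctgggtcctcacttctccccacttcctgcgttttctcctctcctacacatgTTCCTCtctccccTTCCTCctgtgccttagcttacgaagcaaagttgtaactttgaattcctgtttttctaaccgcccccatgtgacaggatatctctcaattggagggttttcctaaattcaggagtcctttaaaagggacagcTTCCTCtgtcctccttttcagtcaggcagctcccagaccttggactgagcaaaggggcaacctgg
C1qb, chr4:136886171-136886450, minus strand: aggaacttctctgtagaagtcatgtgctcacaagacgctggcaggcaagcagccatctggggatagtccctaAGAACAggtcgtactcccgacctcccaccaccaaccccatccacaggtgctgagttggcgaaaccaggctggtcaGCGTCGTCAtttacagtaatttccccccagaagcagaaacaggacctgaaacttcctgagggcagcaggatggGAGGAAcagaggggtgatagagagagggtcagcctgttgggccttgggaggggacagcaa
C1qc, chr4:136892885-136893164, minus strand: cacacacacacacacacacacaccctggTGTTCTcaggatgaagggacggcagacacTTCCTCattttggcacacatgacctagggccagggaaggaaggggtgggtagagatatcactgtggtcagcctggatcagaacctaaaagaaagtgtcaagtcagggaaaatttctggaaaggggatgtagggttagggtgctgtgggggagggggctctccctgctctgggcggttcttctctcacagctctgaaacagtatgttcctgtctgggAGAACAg
GAGGAA was found in 3 of the 5 promoters, with 3 matches in Mrc1 and 1 each in C1qb and C1qc, and it occurs in 26.0% of all 32851 promoters of this length. AGAACA was found in Cd163, C1qb and C1qc, and in 17.8% of all promoters. TGACNNNGC was found in C1qb alone of the 5, and in 11.5% of all promoters. The promoter of Spic held none of the 3, and none of the matches overlapped another. These motifs were chosen after the values were seen, and a match describes letters only.

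Other macrophage genes were given by a list of 18, of which 17 could be tested. In BMAd-Pnpla2+/+ marrow 3 of the 17 rose under CR and none fell, beside 15% and 10.9% of all genes. The median log2 fold change of the 17 was 0.13 beside 0.00 for all genes. They were Stab1, a scavenger receptor shared with sinusoidal endothelium (153 ± 41.2 to 353 ± 146 CPM, log2 1.20 ± 0.26 SE, adjusted p = 0.00840 by edgeR), the transcription factor Maf (127 ± 21.5 to 228 ± 61.0 CPM, log2 0.84 ± 0.20, adjusted p = 0.0117) and Mertk, a receptor for dying cells (log2 0.63, adjusted p = 0.0362). Axl, Csf1r and Cd68, the most abundant of the list beside Stab1, did not pass (log2 0.13, 0.29 and 0.32, adjusted p = 0.679, 0.290 and 0.205 by edgeR). At an unadjusted p under 0.05 were 6 of the 17. Lyve1, Aif1 and Cd5l were lower without passing (log2 -0.72, -0.44 and -0.74, adjusted p = 0.0511, 0.0607 and 0.0776 by edgeR). In BMAd-Pnpla2-/- marrow 0 of 17 passed by edgeR, with 4 at an unadjusted p under 0.05 and a median of -0.08 beside 0.05. There 6.01% of all genes were higher and 5.57% lower.

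Of 23 tested genes of haem and iron handling, 4 rose and 2 fell under CR in BMAd-Pnpla2+/+ marrow (median log2 -0.16), beside the same shares of all genes. Trf, which encodes transferrin, rose from 470 ± 115 to 1057 ± 290 CPM (log2 1.17 ± 0.25 SE, adjusted p = 0.00653 by edgeR), and Aco1, the iron regulatory protein 1, from 53.3 ± 5.69 to 88.0 ± 13.9 CPM (log2 0.72 ± 0.13, adjusted p = 0.00306). The other risers were the ferroxidases Cp and Heph (log2 0.80 and 0.79), and those that fell were Blvrb, a biliverdin reductase of red cells (log2 -0.86), and Steap3, an erythroid ferrireductase (log2 -0.75). The ferritin gene Fth1, the most abundant at 1468 ± 235 and 1330 ± 137 CPM, did not pass (log2 -0.14, adjusted p = 0.428 by edgeR), nor did Hp, the haptoglobin that presents haemoglobin to CD163 (1001 ± 205 and 1150 ± 123 CPM, adjusted p = 0.275), or Lrp1, the receptor for haem bound to haemopexin (700 ± 177 and 1188 ± 499 CPM, adjusted p = 0.0571). Of the same 23 genes, 3 rose and 2 fell in BMAd-Pnpla2-/- marrow, beside 6.01% and 5.57% of all genes. The risers were Aco1 again (log2 0.52, adjusted p = 0.0371 by edgeR), the haem exporter Flvcr1 (log2 0.50) and the iron regulatory protein Ireb2 (log2 0.44). Those that fell were Hmox2 (log2 -0.49) and Slc11a1 (log2 -0.35). Library type differs between the diets in this genotype.

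Genes of erythroblast contact and engulfment gave 1 riser and 1 that fell of 12 tested in BMAd-Pnpla2+/+ marrow: Mfge8, a bridge between dying cells and phagocytes (81.1 ± 10.6 to 168 ± 57.3 CPM, log2 1.05 ± 0.31 SE, adjusted p = 0.0257 by edgeR), and Dnase2a, the nuclease that digests expelled nuclei (62.2 ± 1.98 to 53.2 ± 4.45 CPM, log2 -0.23 ± 0.08, adjusted p = 0.0464). Of all genes 15% were higher and 10.9% lower in that comparison. Itgb3, Gas6, Sirpa and Cd47, the most abundant, did not pass. In BMAd-Pnpla2-/- marrow 0 of 12 passed by edgeR, with 4 at an unadjusted p under 0.05. There 6.01% of all genes were higher and 5.57% lower. Icam4, also on this list, had 3 or fewer counts without strand in every library. Among partners, receptors and regulators of C1q, C3 and Calr fell (log2 -0.44 and -0.32, adjusted p = 0.0211 and 0.0469 by edgeR) in BMAd-Pnpla2+/+ marrow, where C4b and Serping1 did not pass. C3, Calr and Cfp fell in BMAd-Pnpla2-/- marrow (log2 -0.58, -0.49 and -0.47). Of 13 macrophage growth factor and transcription factor genes, 2 rose and 5 fell in BMAd-Pnpla2+/+ marrow, beside 15% and 10.9% of all genes. Csf1, the macrophage colony-stimulating factor, and Rxra were the risers (log2 0.70 and 0.79), and the 5 were Spi1, which encodes PU.1 (474 ± 69.6 to 354 ± 58.6 CPM, log2 -0.42 ± 0.14 SE, adjusted p = 0.0379 by edgeR), Csf2ra, Csf2rb, Irf8 and Spib (log2 -0.45, -0.40, -0.48 and -1.84). In BMAd-Pnpla2-/- marrow 4 of these 5, Csf2rb excepted, fell as well and none of the 13 rose, beside 5.57% and 6.01% of all genes.

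Markers of other marrow cells moved with the diet, and their part in the results above was not tested. The counts that follow are read against the 15% of all genes higher and 10.9% lower in BMAd-Pnpla2+/+ marrow. Under CR in BMAd-Pnpla2+/+ marrow, 6 of 7 endothelial markers rose and their summed level went from 549 to 810 CPM under AL to 696 to 1427 under CR. For reticular stromal markers 3 of 7 rose, with sums of 4365 to 5416 and 5119 to 9332 CPM. Within the CR group, replicates 2 and 3, which had the highest Cd163 and Mrc1, also had the highest sums of both lists (1427 and 1224 CPM endothelial, 9332 and 8565 CPM stromal), and the lowest erythroid sums (11550 and 10680 CPM against 34270 and 51910). All 9 adipocyte markers rose, from sums of 933 to 2018 CPM to 2441 to 6089. The sum of monocyte markers, the blood cells nearest to macrophages, was 1014 to 1293 CPM under AL and 817 to 995 CPM under CR. Among blood cells 4 of 8 monocyte, 6 of 10 neutrophil, 2 of 8 dendritic cell and 5 of 7 B cell precursor markers fell, while none of those lists had a riser except Flt3 among dendritic cell markers. Erythroid markers spanned 18510 to 34200 CPM under AL and 10680 to 51910 under CR, and 0 of 10 passed by edgeR, with 1 at an unadjusted p under 0.05. Osteoclasts, which are of macrophage lineage, had 5 of 7 markers raised. Their sums overlapped, at 1400 to 2008 CPM under AL and 1472 to 3711 under CR, with 3711 in replicate 2. Samples under CR were widely spread, with Ctsk at 196 ± 210 and Acp5 at 292 ± 251 CPM. Osteoblasts and osteocytes had 3 of 8 markers raised, with overlapping sums of 476 to 1076 and 670 to 3462 CPM. Skeletal muscle markers summed to at most 26.3 CPM in BMAd-Pnpla2+/+ samples, with 0 of 4 passing by edgeR and none at an unadjusted p under 0.05.

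In BMAd-Pnpla2-/- marrow 2025 of all genes passed, beside 4543 in BMAd-Pnpla2+/+ marrow, and the counts of the lists were not tested against each other. Without Pnpla2 in BMAds 6.01% of all genes were higher and 5.57% lower under CR, and the counts that follow are read against those shares. Library type differs between the diets there as well. Endothelial markers had 0 of 7 passing by edgeR, with 2 at an unadjusted p under 0.05 and sums of 512 to 674 CPM under AL and 641 to 819 under CR. Reticular stromal markers had 1 of 7 raised, with sums of 4302 to 7076 and 5003 to 7245 CPM. In AL replicate 2, the library highest in all 10 macrophage genes, the stromal sum was 7076 CPM and in the other 2 libraries 4302 and 4705. Adipocyte markers had 8 of 9 raised, B cell precursor markers 5 of 7 lowered, neutrophil markers 1 of 10 lowered, and osteoblast and osteocyte markers 1 of 8 raised. Monocyte and dendritic cell markers had 1 raised and 1 lowered each, and osteoclast, erythroid and skeletal muscle markers had no call by edgeR, with 3, 0 and 3 genes at an unadjusted p under 0.05. The summed skeletal muscle level was 14, 10.5 and 11.7 CPM under AL and 10.03, 35.0 and 115 CPM under CR. Replicate 3 of CR, at 115 CPM, also had the highest Cd163 (201 CPM), and the Cd163 call was lost without it. In that fit Cd163 stayed at log2 1.45 (adjusted p = 0.0567 by edgeR). There 248 of 17951 genes passed, beside 2025 of 17494 with all samples. The part of muscle in the Cd163 level of that replicate was not tested.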

How the data were processed

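RNA of 14 pooled marrow plug samples was sequenced as read pairs. The authors checked reads with FastQC 0.11.9, aligned them to mm10 with STAR and used DESeq2. They deposited raw counts per gene and sample, without strand and on each strand, and 1 count matrix, which equals the reverse-strand counts in 11 samples and the unstranded counts in 3. Here the deposited unstranded counts of the 23441 matrix genes were used. Genes were filtered with filterByExpr, scaled by TMM and tested with edgeR 4.0.16 (robust quasi-likelihood, 1 model of 4 groups), with Benjamini-Hochberg adjustment over 17494 genes and a threshold of 0.05. Intervals of 95% are the log2 fold change ± its SE times the t quantile of the fit. Log2 CPM used a prior count of 2. The test was checked on simulated counts. DESeq2 1.42.0, limma 3.58.1, other counts, scalings, filters and left-out samples were alternatives. Coordinates and exon lengths are from GENCODE M21 (GRCm38).

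All 10 macrophage genes are named in each comparison. From 16 other lists, genes were named among the 4 of highest mean CPM and the 2 of smallest p in BMAd-Pnpla2+/+ marrow. Genes were also named where 5 or fewer were called. Lyve1, Aif1 and Cd5l were named besides, after the values were seen. The remaining genes are given as counts. The macrophage genes and lists were chosen with earlier results of these data known. The labels do not say whether replicate numbers pair the samples, and the numbers were not taken to do so. A result of the C1q list is not reported here.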

Additional observations from a re-analysis of the deposited data

How the results depend on the processing

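In BMAd-Pnpla2+/+ marrow 1 to 3 of the 10 genes passed for CR against AL when each sample was left out in turn. Of all genes, 2200 of 17362 to 5959 of 17441 passed in those fits. With the added log2 fold change threshold of 1, 1 of the 10 passed, beside 1608 of 17494 genes. In BMAd-Pnpla2-/- marrow 0 to 3 passed when each sample was left out, beside 248 of 17951 to 2402 of 17362 of all genes. With DESeq2, with total counts in place of TMM and with the replicate number as a block, 2 passed. The counts over all genes were then 3098, 2068 and 1794 of 17494. The block gave 2 in BMAd-Pnpla2+/+ marrow, beside 4199 of 17494 genes. Of 19 same-numbered pairs, 7 had a correlation of deviations over 0.1, and the 19 ran from -0.37 to 0.33. The numbers were not taken to pair the samples, though these values cannot exclude a pairing. The genotype differences and the interaction gave 0 of 10 in every fit run. Without TMM the log2 fold change in BMAd-Pnpla2-/- marrow turned to 0.061 for C1qc and 0.015 for Adgre1. With the deposited matrix, whose strand handling differs between groups, the genotype difference under CR turned to 0.035 for C1qa and 0.0033 for Mrc1, and the interaction of Vcam1 to -0.054. Without the low-count filter the latter was -0.020.

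Leaving out 1 sample turned the sign of small log2 values. For CR against AL in BMAd-Pnpla2+/+ marrow these ran from -0.24 to 0.042 (Adgre1), -0.18 to 0.00088 (Slc40a1) and -0.051 to 0.15 (Spic). In BMAd-Pnpla2-/- marrow they ran from -0.31 to 0.10 (Adgre1), -0.19 to 0.21 (C1qc), -0.38 to 0.23 (Hmox1) and -0.046 to 0.30 (Spic). The genotype difference under AL, whose alternatives were added after seeing the data, ran from -0.39 to 0.28 (Cd163), -0.34 to 0.23 (Hmox1), -0.096 to 0.24 (Slc40a1), -0.33 to 0.0030 (C1qa), -0.024 to 0.26 (C1qb), -0.074 to 0.27 (C1qc), -0.20 to 0.18 (Mrc1) and -0.095 to 0.35 (Vcam1), and with the block Mrc1 was at -0.055. The genotype difference under CR ran from -0.17 to 0.20 (C1qa), -0.16 to 0.12 (Mrc1) and -0.011 to 0.35 (Vcam1). The interaction ran from -0.17 to 0.24 (Adgre1), -0.044 to 0.32 (C1qa), -0.20 to 0.17 (Mrc1), -0.056 to 0.25 (Spic) and -0.17 to 0.27 (Vcam1). None of these values passed the test in the fit reported or in any of these fits; their cause was not tested. Using every gene of the sample files was an alternative chosen after seeing the data. Reverse-strand counts could not be had for comparisons with BMAd-Pnpla2-/- CR libraries.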
